A study of Mus musculus with 4 samples.

Results

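Transcripts of 10 genes of the NF-kappaB pathway were examined in cultured rib chondrocytes, the cells that make cartilage matrix. The genes were the 5 Rel factors (Nfkb1, Nfkb2, Rela, Relb and Rel), 4 IkappaB proteins or their relatives (Nfkbia, Nfkbie, Nfkbiz and Bcl3) and the ubiquitin-editing enzyme gene Tnfaip3. They were taken by gene symbol from the 17575 genes listed in the study's libraries, and all 10 were listed in all 4 libraries. Rib cartilage of C57/Bl6 mice aged 10 days was digested with collagenase overnight, and the cells were plated before RNA was extracted and sequenced. 2 libraries were labelled wild type. The other 2, called knockout here, came from mice with the transgene Col2Cre(Tg), in which Col2 sequences, active in cartilage, drive Cre recombinase, together with Kdm6a(fl/fl) and Kdm6b(fl/fl), alleles that carry loxP sites. The labels do not say whether the wild type mice carried Cre or loxP alleles, whether animals were pooled, or whether each library had its own animal. The p-values therefore rest on the spread between these libraries alone, which may be technical. The series is described as made in triplicate, and 2 libraries of each group were analysed here.

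NF-kappaB is a dimer of Rel factors. In resting cells IkappaB proteins hold the dimers in the cytoplasm, and signals from cytokine and Toll-like receptors activate the IKK kinases, which mark IkappaB for destruction and free the dimers to enter the nucleus. Several of the genes then induced, Nfkbia and Tnfaip3 among them, encode inhibitors of the pathway, so their transcripts form negative feedback loops. In chondrocytes the pathway is known for its response to interleukin 1 and tumour necrosis factor, with induction of chemokines, prostaglandin synthesis and matrix-degrading enzymes. Kdm6a and Kdm6b encode demethylases of lysine residues of histone H3.

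The libraries held 31178248 to 32332044 estimated counts each, with 2 libraries per group. The targeted genes matched the labels. Kdm6b measured 131 and 118 CPM (counts relative to library size, after TMM scaling) in the wild type libraries and 51.4 and 46.2 CPM in the knockout libraries. Kdm6a measured 52.6 and 56.9 against 28.6 and 31.4 CPM. These values are given per gene, and reads over the deleted stretch alone were not examined. The chondrocyte genes Col2a1, Acan and Sox9 were abundant in all 4 libraries, with at least 490 CPM each. Of 15 macrophage markers, 10 passed the filter on low counts and 9 of these had a negative log2 fold change. At an edgeR adjusted p under 0.05, 3 of the 10 fell in knockout and 0 rose, where 5.63% of all tested genes fell. Summed over all 15, macrophage markers stood at 216 and 218 CPM in wild type and at 120 and 131 CPM in knockout. Most of each sum was 1 gene, Cd14, at 125 and 132 CPM in wild type and 61.4 and 76.3 CPM in knockout. The defining marker Csf1r was far lower, at 6.48 and 6.72 against 3.05 and 4.76 CPM.

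Promoter sequences are shown because 6 members (Rel, Nfkbia, Nfkbie, Nfkbiz, Tnfaip3 and Bcl3) were at least 1.5-fold apart between the knockout libraries. Binding of NF-kappaB to sites near the starts of feedback genes is the textbook route of feedback. Whether the matches below have a part in that difference was not tested. Nfkb2, at a ratio of 1.42, held matches as well, and Nfkbiz had no window. RefSeq windows of 300 bases (GRCm38.p6, from 250 bases before to 50 bases after a start) were at hand for 7 members, 10 windows in all, and were searched on both strands for the kappaB consensus of 10 bases, with overlapping matches joined. Of 32851 windows of all genes, 8.46% held a match. Of the 10 windows of members, 8 held a match, and windows 2 and 3 of Nfkb2 share one. The window of Rela and window 2 of Tnfaip3 held none. Counted by gene, 6 members, Nfkb2, Rel, Nfkbia, Nfkbie, Tnfaip3 and Bcl3, had at least 1 window with a match. No window was used for Nfkb1, Relb and Nfkbiz. A match is a description of these letters and not a measured site. The match nearest to the start is given for each gene, or for its most upstream start where it has several, in 30 bases on the gene's strand with the match in capitals. Positions count from that start, and of the matches shown only that of Bcl3 lies after it.
Nfkbia, chr12:55492657-55492686 (minus strand), match from -29 to -20: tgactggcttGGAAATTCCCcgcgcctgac
Tnfaip3, chr10:19015403-19015432 (minus strand), match from -12 to -3: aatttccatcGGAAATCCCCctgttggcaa
Nfkbie, chr17:45555584-45555613 (plus strand), match from -106 to -97: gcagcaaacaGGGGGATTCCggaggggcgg
Rel, chr11:23771041-23771070 (minus strand), match from -92 to -82: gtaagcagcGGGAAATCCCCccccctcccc
Nfkb2, chr19:46304716-46304745 (plus strand), match from -11 to -2: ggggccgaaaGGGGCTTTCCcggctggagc
Bcl3, chr7:19822734-19822763 (minus strand), match from 3 to 12: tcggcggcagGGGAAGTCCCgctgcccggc

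Levels were compared between genes as FPKM, which takes transcript length into account. Nfkbia stood highest in both groups, at 83.1 and 73.2 FPKM in the wild type libraries and 52.4 and 90.4 FPKM in the knockout libraries. Rela and Nfkb1 followed, with wild type means of 50.1 and 45.3 FPKM, then Nfkbiz (36.9 FPKM), Nfkb2 (33.1 FPKM), Relb (23.0 FPKM) and Bcl3 (13.0 FPKM). Nfkbie, Tnfaip3 and Rel were the lowest, at 4.46, 3.04 and 2.92 FPKM. Neighbours in the wild type order overlapped in 2 cases, Nfkbiz with Nfkb2 and Tnfaip3 with Rel. In the knockout order 6 pairs of neighbours overlapped. Rela and Nfkb1, which encodes the p105 precursor of p50, are the subunits of the classical dimer, and both were far above Rel, the factor best known from lymphocytes. Lymphocyte markers were close to 0: the summed level of 10 T and B cell markers was 2.35 to 3.19 CPM, and Cd3e was not listed in any library.

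The main question was whether loss of Kdm6a and Kdm6b moved these transcripts. None of the 10 members passed an adjusted p of 0.05 in edgeR's quasi-likelihood test of knockout against wild type, where 3.62% of 13773 tested genes rose and 5.63% fell. At an unadjusted p under 0.05 there was 1 member, Rela, where 29.2% of all tested genes passed. DESeq2 likewise called 0 members after adjustment and 1 before, where 17.7% of all genes passed before adjustment. Log2 fold changes (knockout minus wild type) ran from -0.34 for Rel to 0.60 for Bcl3, with 8 below 0 and a median of -0.14, against 0.0044 over all tested genes. The authors' deposited table gave adjusted p-values of 0.129 for Rela and at least 0.552 for the other members.

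**Figure D1:**
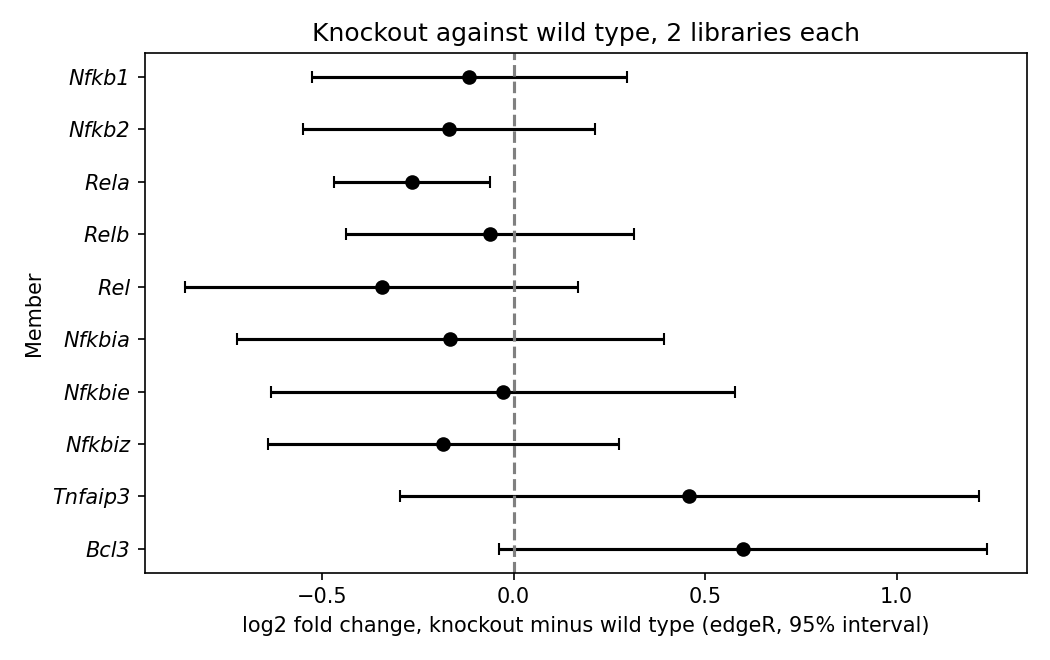
Log2 fold change (x axis, knockout minus wild type, edgeR) of each member (y axis), with points for the estimate and bars for the 95% interval, 2 libraries per group. The interval of Rela lies below 0 before adjustment over all genes, and those of the other 9 members include 0.

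Among the Rel factors, Rela, which carries the transactivation domain of the classical dimer, measured 143 and 132 CPM in wild type and 109 and 120 CPM in knockout. Both knockout libraries lay below both wild type libraries. The log2 fold change was -0.27 (SE 0.085, 95% interval -0.47 to -0.06, edgeR adjusted p = 0.101), and the adjusted p ran from 0.0706 to 0.368 over the alternatives. Rel, which encodes c-Rel, measured 7.87 and 7.44 CPM in wild type and 4.79 and 7.27 CPM in knockout, and its groups did not overlap either. The second knockout library was within counting error of the wild type ones, at 237 counts against 226 and 249. Its log2 fold change was -0.34 (SE 0.21, edgeR adjusted p = 0.326). Groups lay apart downward in 2 members, as in 30.7% of all tested genes, and upward in 1, Bcl3, as in 30.9%.

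Nfkb1 measured 195 and 186 CPM in wild type, 142 CPM in knockout replicate 1 and 210 CPM in knockout replicate 2. Nfkb2, which encodes the p100 precursor of p52 in the non-canonical branch, measured 109 and 100 CPM in wild type and 77.0 and 109 CPM in knockout. Relb, the usual partner of p52, measured 54.8 and 48.1 CPM in wild type and 41.3 and 57.3 CPM in knockout. In all 3 genes knockout replicate 1 was the lowest library, and knockout replicate 2 lay at or above the higher wild type one. The intervals of their log2 fold changes were -0.53 to 0.30 for Nfkb1, -0.55 to 0.21 for Nfkb2 and -0.44 to 0.31 for Relb (edgeR adjusted p = 0.690, 0.513 and 0.825). As folds of knockout over wild type, these bounds are 0.694 to 1.23, 0.684 to 1.16 and 0.738 to 1.24. With 2 libraries per group, changes of any size within them remain compatible with the data.

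Among the feedback genes, Nfkbia, which encodes IkappaB-alpha, measured 131 and 119 CPM in wild type, 81.6 CPM in knockout replicate 1 and 141 CPM in knockout replicate 2. The knockout libraries lay on either side of the wild type pair. The log2 fold change over all 4 libraries was -0.16 (SE 0.23, 95% interval -0.72 to 0.39, edgeR adjusted p = 0.674). Nfkbie, the gene of IkappaB-epsilon, showed the same arrangement at a lower level, at 11.4 and 10.5 CPM in wild type and 7.84 and 13.7 CPM in knockout (log2 fold change -0.03, 95% interval -0.63 to 0.58, edgeR adjusted p = 0.953). Nfkbiz encodes IkappaB-zeta, a nuclear relative that acts as a cofactor at selected targets. It measured 123 and 148 CPM in wild type and 95.4 and 144 CPM in knockout, with replicate 1 again the lowest and replicate 2 between the wild type libraries (log2 fold change -0.18, SE 0.19, edgeR adjusted p = 0.559).

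Tnfaip3, the gene of A20, which removes activating ubiquitin chains upstream of IKK, measured 14.1 and 13.4 CPM in wild type and 12.1 and 25.6 CPM in knockout. Knockout replicate 1 was slightly below the wild type libraries and replicate 2 stood 1.87-fold above their mean. Bcl3, a nuclear IkappaB relative that binds p50 and p52 homodimers, measured 23.7 and 24.5 CPM in wild type and 25.4 and 47.6 CPM in knockout. Only replicate 2 departed from wild type, by 1.98-fold, and replicate 1 was within counting error at 832 counts against 750 and 743. The log2 fold changes were 0.46 (SE 0.31, edgeR adjusted p = 0.371) for Tnfaip3 and 0.60 (SE 0.27, 95% interval -0.04 to 1.24, edgeR adjusted p = 0.192) for Bcl3.

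**Figure D2:**
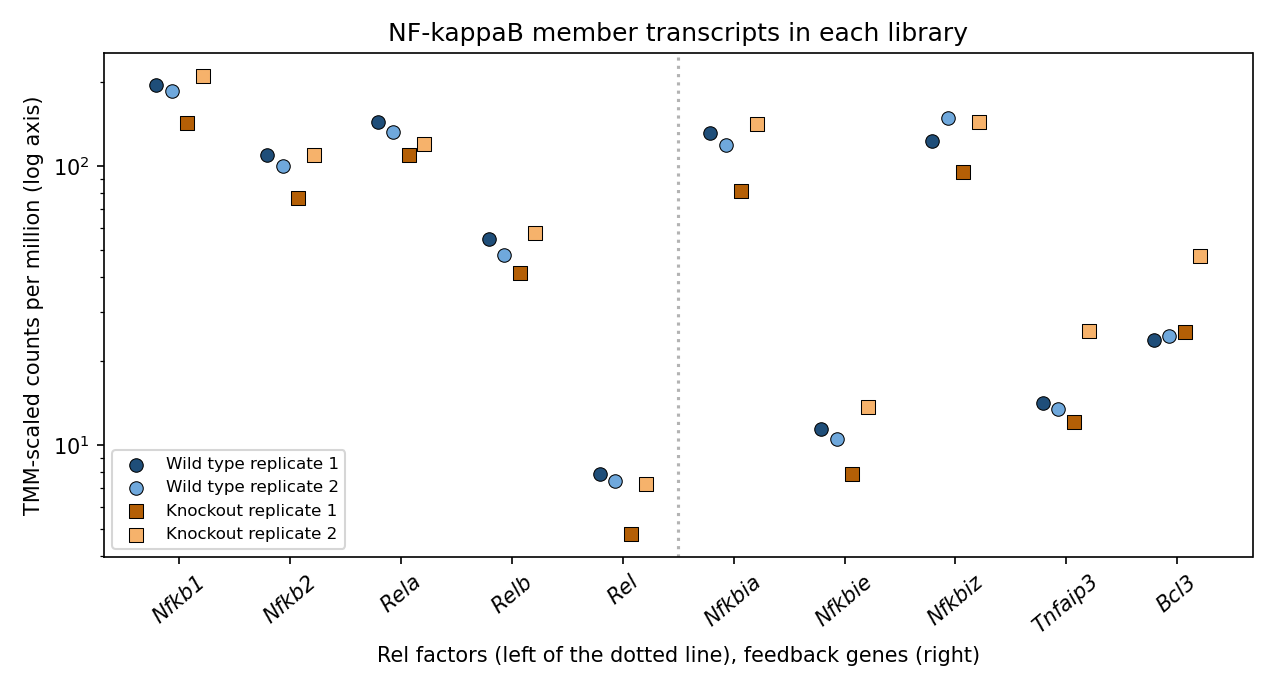
TMM-scaled CPM (y axis, log scale) of each member (x axis), with 1 point per library, circles for wild type and squares for knockout. Knockout replicate 1 is the lowest point in 9 of the 10 members, Bcl3 being the exception.

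In every member except Rela, the log2 ratio between the knockout libraries was larger in size than the log2 fold change between the groups. The share of all tested genes for which this holds was not computed. A ratio between 2 single libraries also varies more than a difference between group means. Knockout replicate 1 lay below both wild type libraries in 9 of 10 members, where 40.3% of all tested genes did so, and its median ratio to the wild type mean was 0.740. Knockout replicate 2 lay above both wild type libraries in 7 of 10, against 40.8% of all tested genes, with a median ratio of 1.11. In 6 members (Nfkb1, Nfkb2, Relb, Nfkbia, Nfkbie and Tnfaip3) the 2 knockout libraries stood on opposite sides of the wild type pair, an arrangement found in 7.77% of all tested genes. For Nfkb2 this rests on an upper margin smaller than counting error, since replicate 2 and wild type replicate 1 both measured 109 CPM. The upper margin of Relb was also close to counting error, with 57.3 CPM (1867 counts) in replicate 2 against 54.8 CPM (1732 counts) in wild type replicate 1. So was the lower margin of Tnfaip3, with 12.1 CPM (398 counts) in replicate 1 against 13.4 CPM (406 counts) in wild type replicate 2.

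Every member was higher in knockout replicate 2 than in replicate 1, where 6917 of 13773 tested genes were. The ratio was largest for Tnfaip3, at 2.11 (95% exact counting interval 1.87 to 2.38), followed by Bcl3 at 1.88 (1.72 to 2.04), Nfkbie at 1.75 (1.5 to 2.05) and Nfkbia at 1.73 (1.65 to 1.82). Intervals and ratios of this kind cover counting error only. With Rel at 1.52 and Nfkbiz at 1.51, 6 members were at least 1.5-fold higher, where 6.98% of all tested genes were. Nfkb1, at 1.48, fell just short of that fold, Nfkb2 and Relb stood at 1.42 and 1.39, and Rela at 1.11 was the most even. All 5 feedback genes and 1 of the 5 Rel factors were past 1.5-fold. The median ratio over the members was 1.51, and over all tested genes it was 1.0. Between the wild type libraries the members' ratios (replicate 2 over replicate 1) ran from 0.879 for Relb to 1.20 for Nfkbiz, with a median of 0.936.

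**Figure D3:**
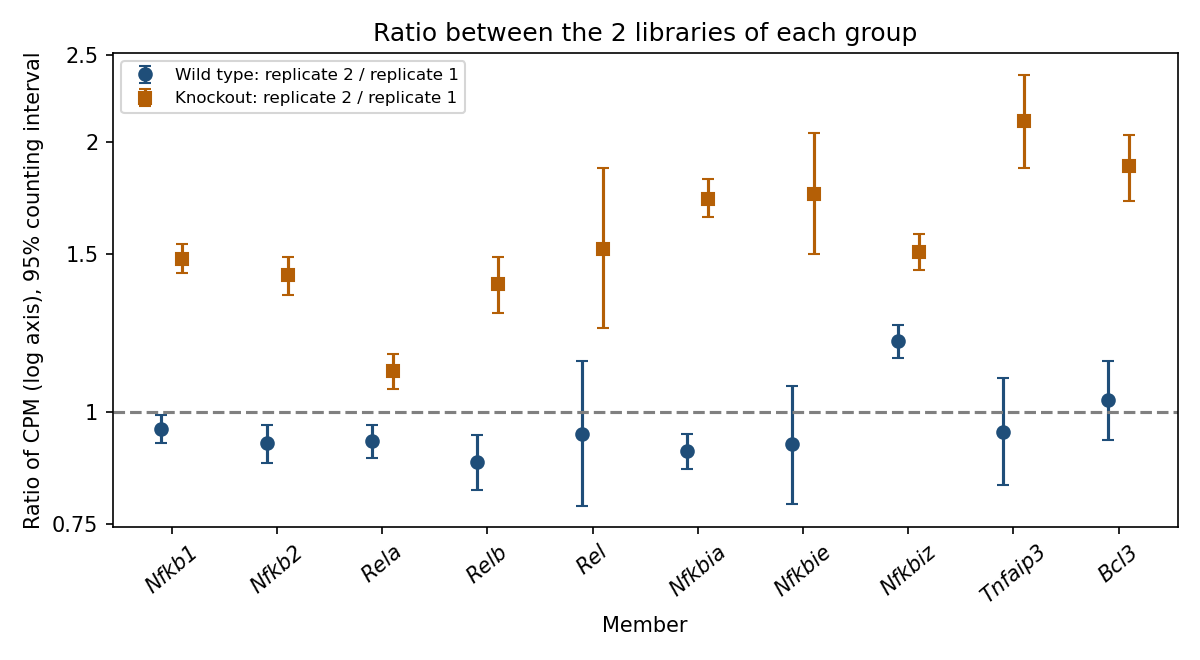
Ratio of CPM between replicate 2 and replicate 1 (y axis, log scale) of each member (x axis), with circles for wild type, squares for knockout and bars for the 95% counting interval. The knockout ratio exceeds the wild type ratio in all 10 members and is largest for Tnfaip3 at 2.11. The wild type ratio is below 1 in 8 members, and the share of all tested genes with the higher ratio in knockout was not computed.

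The calls differed with the knockout library left out. Without knockout replicate 1, Tnfaip3 and Bcl3 rose, with log2 fold changes of 0.90 (edgeR adjusted p = 0.00300) and 0.98 (edgeR adjusted p = 0.000710). In that fit 2.93% of all tested genes rose and 4.77% fell. Without knockout replicate 2, Nfkb1, Nfkb2, Nfkbia and Nfkbiz fell, and Nfkbia had the largest of these changes at -0.60 (edgeR adjusted p = 0.0103). In that fit 5.85% of all tested genes fell and 3.19% rose. In both fits the single knockout library is assumed to vary like the wild type pair. Over all alternatives the adjusted p ran from 0.00300 to 0.670 for Tnfaip3, from 0.000710 to 0.755 for Bcl3 and from 0.0103 to 0.894 for Nfkbia. No member was called in the same direction under both omissions.

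Other genes of the pathway were described by lists. Of 31 tested receptors and adaptors 1 rose and 0 fell, where 3.62% of all tested genes rose and 5.63% fell. The median log2 fold change of the 31 was -0.07. The riser was Tlr3, the endosomal receptor of double-stranded RNA, with means of 2.55 ± 0.25 CPM in the wild type and 4.90 ± 0.15 CPM in the knockout libraries (SD, n = 2). The log2 fold change was 0.94 (SE 0.18) with an edgeR adjusted p of 0.0292. That call was lost without knockout replicate 2 (edgeR adjusted p = 0.0533) and in FPKM-based limma (adjusted p = 0.0615), and over the alternatives the log2 fold change stayed between 0.44 and 1.05. The adaptor Traf1, itself a known NF-kappaB target, measured 5.76 and 5.04 CPM in wild type and 1.92 and 3.22 CPM in knockout (edgeR adjusted p = 0.0564), and Irak2, a kinase-like adaptor of interleukin 1 receptors, 38.2 and 38.8 against 21.3 and 30.4 CPM (edgeR adjusted p = 0.0746). Both fell in DESeq2, with adjusted p-values of 0.0196 for Traf1 and 0.0184 for Irak2, and in edgeR without knockout replicate 2 (adjusted p = 0.00696 and 0.00260). Tlr4, the lipopolysaccharide receptor gene, and Ripk1, which links tumour necrosis factor receptors to IKK, had adjusted p-values of 0.0571 and 0.108.

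None of 15 kinase and IkappaB-degradation genes passed in edgeR or DESeq2. At an unadjusted p under 0.05 edgeR gave 3 of the 15, where 29.2% of all tested genes passed. All 3 were lower in knockout: Ikbke, an IKK-related kinase gene (60.5 and 47.9 CPM in wild type against 25.3 and 42.2 CPM), Map3k14, which encodes the NIK kinase of the non-canonical branch, and Tab3. Ikbke fell in edgeR without knockout replicate 2 (adjusted p = 0.00162). The inhibitors that are not members included 1 fall among 19 tested genes, where 5.63% of all tested genes fell. The inhibitor that fell was Socs1, a suppressor of cytokine signalling, with means of 43.2 ± 12 CPM in the wild type and 19.7 ± 0.31 CPM in the knockout libraries (SD, n = 2). Its log2 fold change was -1.13 (SE 0.18) with an edgeR adjusted p of 0.0171. Tax1bp1, an A20 partner, measured 146 and 155 CPM in wild type and 128 and 123 CPM in knockout (edgeR adjusted p = 0.0746). Rnf11, also of the A20 complex, and Tollip fell short of the threshold with edgeR adjusted p-values of 0.107 and 0.133. Commd1, whose product promotes the breakdown of nuclear RelA, was the only one of the 5 with the smallest p that was higher in knockout, with means of 21.4 ± 0.48 against 17.9 ± 0.085 CPM (SD, n = 2). Its edgeR adjusted p was 0.129.

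Among 38 tested target genes of NF-kappaB 1 rose and 3 fell, where 3.62% of all tested genes rose and 5.63% fell. The median log2 fold change of the 38 was 0.02. The pentraxin gene Ptx3 was 446 and 554 CPM in knockout against 146 and 167 CPM in wild type. Ptgs2, which encodes the inducible cyclooxygenase, stood at 984 and 1221 against 3031 and 3501 CPM, Bmp2 at 52.3 and 39.3 against 170 and 189 CPM, and Ier3, a stress-induced survival gene, at 326 and 416 against 546 and 547 CPM (edgeR adjusted p = 0.0383). The call of Ier3 was lost without knockout replicate 1 (edgeR adjusted p = 0.0555), without the filter on low counts (edgeR adjusted p = 0.0734) and on the FPKM scale. Lif, a cytokine gene at 50.3 and 76.8 against 99.8 and 126 CPM, did not pass with all 4 libraries (edgeR adjusted p = 0.0557). It fell without knockout replicate 1 (edgeR adjusted p = 0.0391) and without knockout replicate 2 (edgeR adjusted p = 0.000912). Of the 21 immediate early genes tested, which respond to stimulation and tissue dissociation, 9 fell and 0 rose, beside the same shares of all tested genes. Of 10 endothelial markers, all with a negative log2 fold change, 4 fell and 0 rose, where 5.63% of all tested genes fell. The summed level of these markers was 165 and 155 CPM in wild type against 121 and 107 CPM in knockout. The part of endothelial cells or macrophages in the other falls was not tested.

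The split between the knockout libraries was wider in the target genes than in the members. Of the 38, 35 were higher in knockout replicate 2 than in replicate 1 and 27 were at least 1.5-fold higher, with a median ratio of 2.10. Of all 13773 tested genes, 6917 were higher in replicate 2 and 6.98% at least 1.5-fold higher. The genes named next were chosen after their values were seen, as those with large ratios. Cxcl5, a neutrophil chemokine gene, measured 3.60 and 33.9 CPM in the knockout libraries and 13.0 and 10.5 CPM in wild type, and Il6 measured 5.80 and 30.7 CPM against 12.5 and 16.2 CPM. Cxcl1 stood at 249 and 804 CPM against 493 and 524 CPM, and Ccl2 at 23.2 and 88.2 CPM against 41.1 and 27.5 CPM. Each of these 4 genes was lowest in knockout replicate 1 and highest in knockout replicate 2. The matrix metalloproteinase gene Mmp3, at 1661 and 3988 CPM in knockout and 3400 and 5340 CPM in wild type, was lowest in the same library but not highest in the other. Without knockout replicate 1, 12 target genes rose and 5 fell, and without knockout replicate 2, 2 rose and 18 fell, beside the shares of all tested genes given above for these fits.

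The ratio of knockout replicate 2 to replicate 1 was 0.751 for Bmp2, 0.978 for Socs1 and 1.24 for both Ptx3 and Ptgs2, and these 4 genes were called with either knockout library left out. Leaving out either wild type library ended every call in edgeR, those of these genes included. In other lists the medians lay nearer to 1, that of the neutrophil markers being the furthest from it at 0.679. The median ratio of knockout replicate 2 to replicate 1 was 1.06 for receptors and adaptors, of which 6 of 31 were nevertheless at least 1.5-fold higher in replicate 2, against 6.98% of all tested genes. Chosen after their values were seen, Il1rl1, the receptor gene for interleukin 33, had the largest of these ratios at 2.38, and Tlr2, a receptor for bacterial lipoproteins, followed at 1.99. The median was 0.989 for kinases (1 of 15 at least 1.5-fold higher), 0.994 for the other inhibitors (2 of 19) and 0.945 for chondrocyte markers (0 of 12). It was 1.04 for the immediate early genes, of which 1 of 21 was at least 1.5-fold higher. In 19 of those 21 both knockout libraries lay below both wild type libraries, where 30.7% of all tested genes did so. Macrophage markers had a median ratio of 0.940 between the knockout libraries, with 155 and 100 counts of Csf1r and 69 and 21 counts of Adgre1 in replicates 2 and 1, but 31 and 72 of Ptprc and at most 3 of C1qa in any library. Neutrophil markers were lower in replicate 2, at 33.4 CPM in sum against 71.0 CPM, with 69.8 and 114 CPM in wild type. Of the 7 tested, 3 were at least 1.5-fold higher in replicate 1. The 4 tested lymphocyte markers had a median ratio of 1.29, and the 10 endothelial markers 0.835. The part of other cell types in the split was not tested, and in bulk RNA fewer cells of a type and less RNA per cell cannot be told apart.

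**Figure D4:**
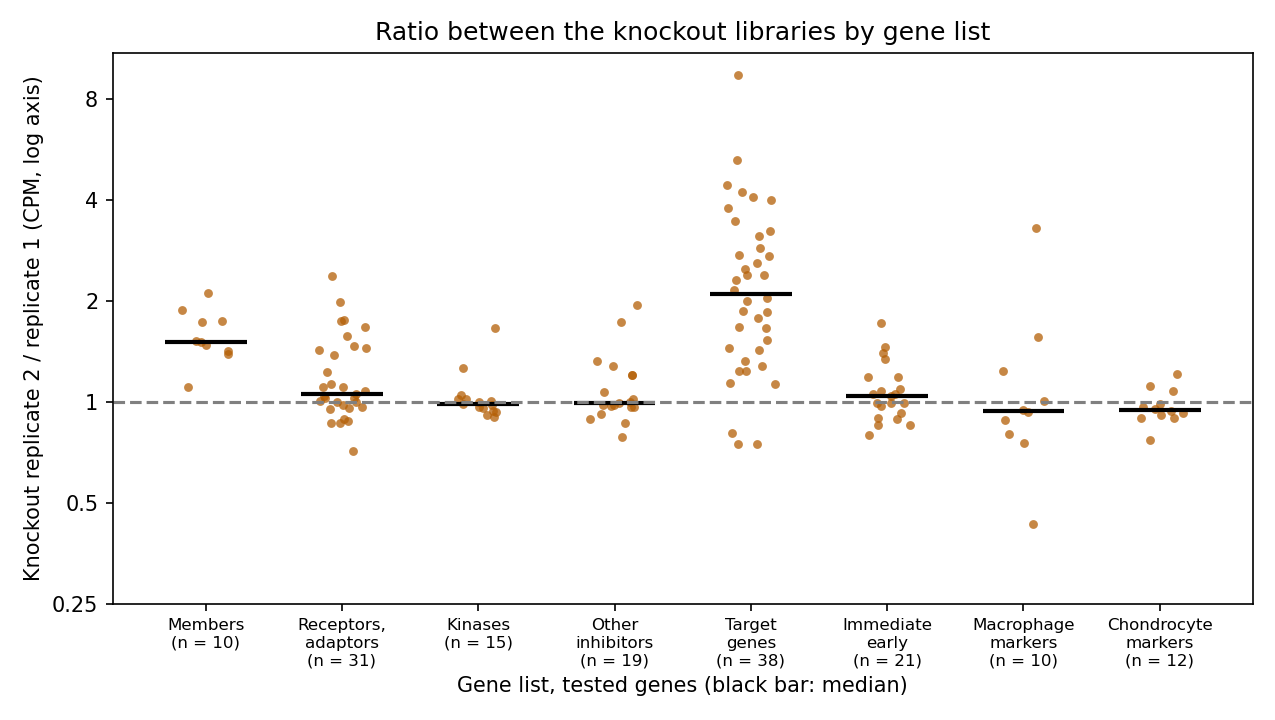
Ratio of CPM between knockout replicate 2 and replicate 1 (y axis, log scale) for the tested genes of 8 lists (x axis), with 1 point per gene and a bar at the median. Target genes have a median ratio of 2.10 and the members 1.51, and the medians of the other 6 lists drawn lie between 0.940 and 1.06. Neutrophil, lymphocyte and endothelial markers are not drawn.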

How the data were processed

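The submitters' processing notes name Bowtie2 2.2.5 and build mm9. Not given in the sources used here are how genes were counted, with which annotation and whether by strand. Per the file headers, the authors deposited expected counts and FPKM per gene in every library. Their deposited comparison holds p-values before and after adjustment, log2 fold changes and a mean signal per group, made with DESeq2 per the file name. The scale of that signal is that of normalized counts.

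Expected counts were rounded and tested with edgeR 4.0.16 (R 4.3.3; TMM, filterByExpr, quasi-likelihood F test, all 4 libraries), adjusted by Benjamini-Hochberg over 13773 genes. All 10 members passed the filter. Each SE was obtained by dividing the log2 fold change by the root of the F statistic. CPM uses TMM-scaled library sizes. The edgeR, DESeq2 and limma steps were tested on simulated data. Alternatives were other scalings, no filter, DESeq2 1.42.0, limma 3.58.1 on log2(FPKM + 0.1) or log2(FPKM + 1), a replicate block, summing 26 entries named by transcript (no member among them) and leaving out each library. Beside the members and Kdm6a and Kdm6b, the 5 genes with the smallest p of each pathway list were eligible to be named. Members and lists were chosen with earlier results of these data known. Csf1r, Adgre1, Ptprc, C1qa and Cd3e were named as defining markers.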

Additional observations from a re-analysis of the deposited data

How the results depend on the processing

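With all 4 libraries, 0 members rose and 0 fell in edgeR, DESeq2 and each of the 3 limma fits. Leaving out 1 library in turn gave 0 to 2 members that rose and 0 to 4 that fell. The log2 fold changes then ran from -0.42 to 0.14 for Nfkb1, -0.43 to 0.064 for Nfkb2, -0.31 to 0.16 for Relb, -0.60 to 0.18 for Nfkbia, -0.48 to 0.32 for Nfkbie, -0.50 to 0.084 for Nfkbiz and -0.17 to 0.90 for Tnfaip3, so these 7 changed sign; Rela, Rel and Bcl3 did not. Of all tested genes 0 to 450 rose and 0 to 825 fell, receptors and adaptors 0 to 3 and 0 to 5, target genes 0 to 12 and 0 to 18; 0 to 1 kinase, 0 to 3 other inhibitors and 0 to 11 immediate early genes fell. No gene at all passed in edgeR when wild type replicate 1, or else replicate 2, was left out (3442 and 2587 at an unadjusted p under 0.05), where 1 group is a single library. Without the filter on low counts 265 genes rose and 455 fell. With limma 507 fell on log2(FPKM + 0.1) and 512 on log2(FPKM + 1), and without its filter 0 genes passed (4055 at an unadjusted p under 0.05), so that 0 of every list rose or fell; no receptor or adaptor rose in any limma fit. DESeq2 called 2 receptors or adaptors that fell (Traf1 and Irak2) and 2 targets that rose. The causes were not tested. Deviations of same-numbered libraries correlated at 0.107 over 13773 genes, and nothing in the labels pairs them. With a replicate block 949 genes rose and 1367 fell, 2 receptors or adaptors rose and 3 fell, 1 kinase fell, 5 targets rose and 12 fell, and 14 immediate early genes fell; still 0 members passed. Of the named genes, the block added Traf1 (adjusted p = 0.0151), Irak2 (0.00948), Ikbke (0.0350) and Lif (0.000309), which fell, and Tlr4 (0.0305), which rose. Ratios between the knockout libraries were recomputed with other scalings, chosen after seeing the data, and each stayed within its counting interval.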
